A study of Mus musculus with 8 samples.

Results

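The comparison set all 4 arrays of macrophages given histidine-rich glycoprotein (HRG) against all 4 arrays of untreated macrophages, with the time in culture as a covariate, and it used 8 of the 8 arrays of the series. Genes that moved the same way at 6 h and at 24 h are described here and called sustained. Macrophages had been washed from the peritoneum of 10 wild-type C57/Bl6 mice, pooled, and left overnight in RPMI medium with fetal calf serum. The 4 groups, of 2 arrays each, were untreated cells at 6 h (Basal_6h), cells with 1 µg/ml recombinant HRG for 6 h (HRG_6h), untreated cells at 24 h (Basal_24h) and cells with the same dose for 24 h (HRG_24h). Every group therefore came from 1 pool of mice and from cells that had first been in serum, which itself carries plasma proteins. Nothing in the labels says how far the replicates were handled apart, so the p-values measure only the spread between these arrays, which may be technical.

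HRG is an abundant plasma protein made by the liver that binds heparan sulphate, heparin, zinc, haem, plasminogen and immune complexes, and it is known as an angiogenesis inhibitor and as a protein that shifts the activation of macrophages. Resident peritoneal macrophages clear dying cells with bridging proteins and receptors such as C1q, MerTK and stabilins. They also read their surroundings through purinergic, lipid and complement receptors. When amino acids run short or protein synthesis is stressed, cells translate the transcription factor ATF4, which raises the genes for amino acid transporters, amino acid synthesis and the enzymes that charge tRNAs.

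Levels are the deposited log2 values, and a difference of 1 on that scale is a doubling. The arrays had medians between 7.18 and 7.29 and replicate correlations between 0.996 and 0.998 across rows, which are not independent. The macrophage markers Adgre1, Csf1r and Cd68 lay between 13.06 and 13.63 on every array, and the recombinant protein's own gene, Hrg, between 4.35 and 4.62. Lists of other cell types were summed on each array (log2 of the summed linear values). Over all arrays the sums were 14.47 to 14.61 for 15 neutrophil genes, 13.29 to 13.91 for 19 B cell genes and 12.79 to 13.63 for 15 mast cell genes. Such a sum can rest on a few bright genes. The median neutrophil gene lay at 6.31 to 6.62, below the median of every array. For B cells that median was 7.92 to 8.975, and for mast cells 8.39 to 9.26. An array of a cell mixture cannot tell fewer cells of a type from less RNA per cell.

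Over both times, 165 genes were higher with HRG and 71 lower, which is 0.828% and 0.356% of the 19938 genes tested and 1.18% together (limma, additive model of time and treatment, Benjamini-Hochberg adjusted p under 0.05). Each of these 236 genes had the same sign at both times, and at each time both HRG arrays lay on the same side of both basal arrays. The additive fit counts a change of the effect between the times as error. Its calls therefore favour such genes, and these traits are no separate evidence. A shared sign was found in 50.1% of all genes. The arrays separated in 38.3% of all genes at 6 h, in 40.2% at 24 h and, with the same sign at both times, in 10.2%, 5.45% with HRG higher and 4.77% with HRG lower, so separation by itself is a weak mark. Among the sustained genes that were higher, 11 rose at least 2-fold and 70 at least 1.5-fold, with a median difference of 0.54. Among those that were lower, 0 fell 2-fold and 29 fell at least 1.5-fold, with a median of -0.52. The median over all genes was near 0 at both times, at 0.019 at 6 h and -0.019 at 24 h.

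**Figure D1:**
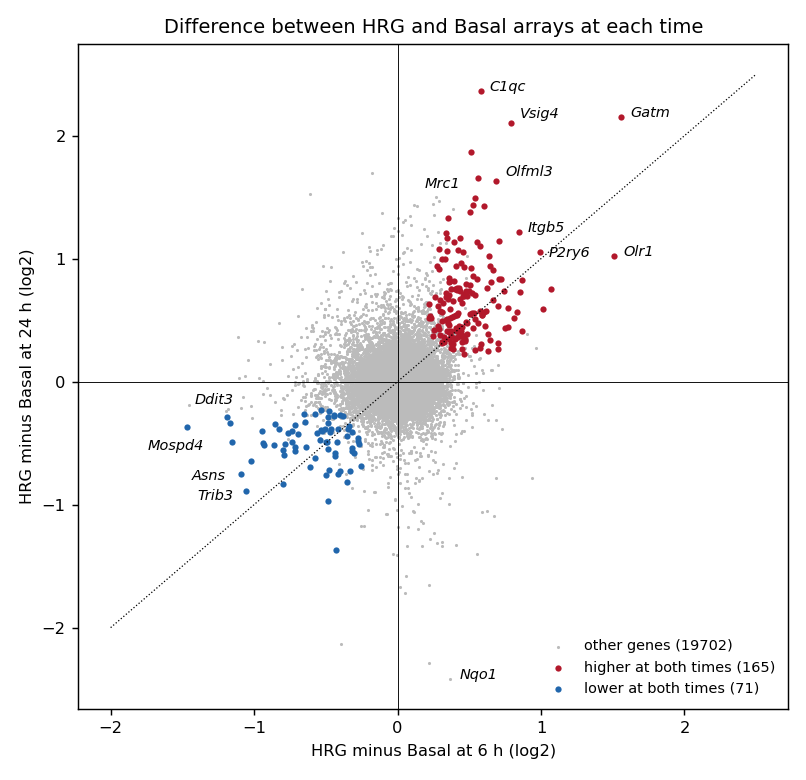
The x axis is the HRG minus basal difference at 6 h and the y axis the same difference at 24 h, both in log2, with 1 point per gene and a dotted line of equal effects. The 165 genes higher at both times and the 71 lower at both times sit in the upper right and lower left, C1qc and Vsig4 lie well above the line, and Mospd4 and Ddit3 lie far to its left.

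The 6 h and 24 h comparisons share no array, so each can be read where the other made its calls. They do share each gene's estimate of the spread, taken over all arrays, so their calls are not independent. At 6 h, 86 genes rose (0.431% of all genes), and 68 of them (79.1%) were also higher with HRG at 24 h, against 43.7% of all genes. Of these 86, 43 rose past the threshold at 24 h as well, which is 50%, where 2.43% of all genes did. The genes that fell early carried over less: of 163 that fell at 6 h (0.818%), 109 (66.9%) were lower at 24 h, against 56.3% of all genes, and 16 (9.82%) fell past the threshold, against 1.05%. Read the other way, 43 of the 485 genes that rose at 24 h had risen at 6 h, and 16 of the 209 that fell had fallen. In either direction 1.25% of all genes passed at 6 h and 3.48% at 24 h. Across all genes the effects at the 2 times correlated only weakly (Pearson r = 0.11, Spearman rho = 0.053, across genes, which are not independent), and 7 genes passed at both times with opposite signs. Each time was also fitted on its own 4 arrays, with no shared spread. Of 58 genes that then rose at 6 h, 33 rose at 24 h as well (56.9%, against 2.8% of all genes). Of 97 that fell, 16 fell again (16.5%, against 1.28%).

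The 43 genes that rose at both times and the 16 that fell at both times, each by its own contrast, were 0.216% and 0.0802% of all genes, and every one of them was among the sustained genes. A further 84 sustained genes that were higher passed singly at 24 h alone, 13 at 6 h alone and 25 at neither. For the lower genes these numbers were 20, 22 and 13. The sustained set therefore rests on early calls more often where genes fell than where they rose, although that difference was not tested. When each array was left out in turn, 62 of the 165 higher genes and 22 of the 71 lower genes passed in all 8 fits, and the same 84 genes passed under 9 other settings. Those 9 leave out the fit without the time covariate, in which 7 of the 236 genes passed, and the 1.5-fold minimum, which 99 met. The 84 genes are called steady below, in that sense. The counts themselves ranged from 102 to 199 genes, with 102 without HRG_24h replicate 2, 122 without HRG_24h replicate 1, 132 without HRG_6h replicate 1 and 151 without Basal_24h replicate 2.

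Gatm rose most and had, with P2ry6, the smallest adjusted p. It encodes glycine amidinotransferase, which moves the amidino group of arginine to glycine in the first step of creatine synthesis. Its basal arrays read 8.24 and 8.18 at 6 h and 7.43 and 7.12 at 24 h, and its HRG arrays read 9.88 and 9.65 at 6 h and 9.44 and 9.41 at 24 h. All 4 HRG values lay above all 4 basal values, although the untreated level itself dropped between the times. The difference was 1.85 ± 0.12 (SE), or 3.61-fold, with limma adjusted p = 8.9e-05. Gamt, the methyltransferase of the second step, was higher by 0.49 ± 0.07 (adjusted p = 0.0062), from 8.19 and 8.14 to 8.58 and 8.59 at 6 h and from 8.34 and 8.50 to 8.95 and 9.003 at 24 h. Ckb, the brain-type creatine kinase that uses creatine as an energy buffer, was higher by 0.51 ± 0.08 (adjusted p = 0.013). Arg1, which splits arginine into ornithine and urea and marks alternative activation, was higher by 0.48 ± 0.09 (adjusted p = 0.030). Its effect was 0.70 at 6 h and 0.27 at 24 h, where the basal arrays (13.06 and 13.02) already lay close to the HRG arrays (13.30 and 13.30). The arginine importer Slc7a1 went the other way, at -0.72 ± 0.12 (adjusted p = 0.013). In the list of arginine, creatine and polyamine metabolism, 4 of 19 measured members thus rose, 1 fell and 14 did not pass, with a list median of 0.069, and the count was 2 without HRG_24h replicate 2. Gatm and Gamt were steady, while the call for Ckb and Slc7a1 was lost without HRG_24h replicate 2 and that for Arg1 without 7 of the 8 single arrays.

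**Figure D2:**
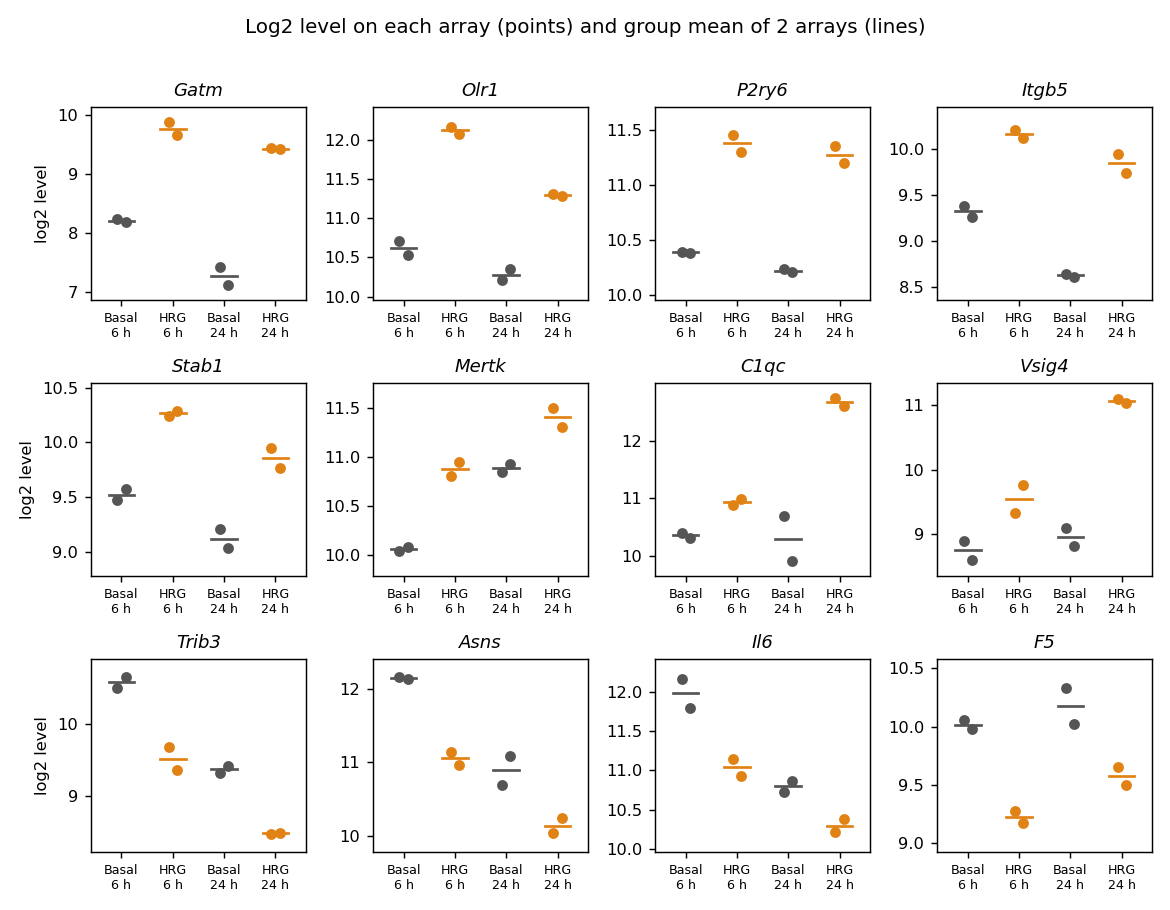
Each panel gives the log2 level of 1 gene (y axis) in the 4 groups (x axis), with a point for each of the 2 arrays and a line at their mean. In the first 2 rows, from Gatm to Vsig4, the HRG points lie above the basal points of the same time, and in the bottom row, from Trib3 to F5, they lie below.

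Of 30 measured genes for the uptake of dying cells, 4 rose over both times: Itgb5, Stab1, Tgm2 and Mertk. Itgb5, the integrin subunit that binds the bridging protein MFG-E8, read 9.38 and 9.27 in basal arrays at 6 h, 10.21 and 10.12 with HRG at 6 h, 8.65 and 8.61 in basal arrays at 24 h and 9.95 and 9.75 with HRG at 24 h. It rose by 1.03 ± 0.09, or 2.04-fold (adjusted p = 0.00053). Stab1, the stabilin that binds phosphatidylserine and modified lipoproteins, rose by the same 0.74 at each time, from 9.48 and 9.57 to 10.24 and 10.29 at 6 h and from 9.21 and 9.04 to 9.95 and 9.77 at 24 h (adjusted p = 0.0011). Both genes separated the treatments by more than the replicates differed. Tgm2, the transglutaminase that assists MFG-E8-dependent uptake, rose by 0.79 ± 0.09 (adjusted p = 0.0024). Mertk, the receptor tyrosine kinase for phosphatidylserine-bound GAS6 and protein S, rose by 0.66 ± 0.08 (adjusted p = 0.0038). Its untreated level climbed from 10.04 and 10.09 at 6 h to 10.85 and 10.93 at 24 h, so HRG at 6 h (10.81 and 10.95) gave values that untreated cells had at 24 h. None of the 30 fell, 26 did not pass, among them the bridging proteins Mfge8, Gas6 and Pros1, 25 had a mean difference above 0, and the list median was 0.19. All 4 also passed at each time singly and were steady.

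Among scavenger receptors and C-type lectins, 4 of 31 rose and 0 fell, with a median of 0.15. Olr1, the lectin-like receptor for oxidised LDL, read 10.71 and 10.53 without and 12.18 and 12.08 with HRG at 6 h, then 10.21 and 10.35 without and 11.31 and 11.28 with HRG at 24 h. It was 2.40-fold higher over both times (1.26 ± 0.10, adjusted p = 0.00039). Trem1, an amplifier of myeloid activation, rose by 0.98 ± 0.16, a call lost without HRG_24h replicate 2, and Trem2, a lipid-sensing receptor, rose by 0.55 ± 0.08. Clec7a, the β-glucan receptor dectin-1, was higher by 0.44 ± 0.09 with adjusted p = 0.047, a call that was lost without 7 of the 8 single arrays. Olr1 and Trem2 were steady, and the count was 2 without HRG_24h replicate 2.

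Complement gave the list with the largest share of sustained members: 7 of 19 rose (36.8%) and 0 fell, with a median of 0.23. The subunits of C1q, the opsonin that starts the classical pathway, rose by 1.47 ± 0.30 (C1qc), 1.19 ± 0.23 (C1qa) and 1.11 ± 0.19 (C1qb). The calls of all 3 subunits, and those of Vsig4 and F13a1 below, were lost when limma's variance prior was fitted with a trend and robustly. C1qc read 10.40 and 10.32 in basal and 10.89 and 10.998 in HRG arrays at 6 h, then 10.70 and 9.92 in basal and 12.74 and 12.60 in HRG arrays at 24 h. The early step was thus small beside the late one, and the 2 untreated arrays at 24 h lay far apart. Vsig4, the complement receptor CRIg of resident macrophages, rose by 1.45 ± 0.22 (adjusted p = 0.011), from 8.90 and 8.61 to 9.33 and 9.76 at 6 h and from 9.10 and 8.81 to 11.09 and 11.03 at 24 h. The receptors for the fragment C5a, C5ar1 (0.58 ± 0.08) and C5ar2 (0.45 ± 0.09), and Itgax, the α subunit of complement receptor 4 (0.66 ± 0.12), rose as well. Only C5ar1 of the 7 was steady. The count of complement members fell to 3 without Basal_24h replicate 1 or HRG_24h replicate 1 and to 1 without HRG_24h replicate 2.

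Genes of extracellular nucleotide signalling were among the steadiest. P2ry6, the receptor for UDP that triggers phagocytosis in microglia, read 10.39 and 10.38 in basal and 11.46 and 11.30 in HRG arrays at 6 h, and 10.23 and 10.21 in basal and 11.35 and 11.20 in HRG arrays at 24 h. That is 1.02 ± 0.07, or 2.03-fold, with adjusted p = 8.9e-05, and the effect at 24 h differed from that at 6 h by 0.061 with a 95% interval from -0.24 to 0.37. Gna15, a Gq-class subunit that couples many receptors to phospholipase C, rose by 0.91 ± 0.10 (adjusted p = 0.0024). Nt5e (CD73), which makes adenosine from AMP and marks large resident macrophages, rose by 0.80 ± 0.09 (adjusted p = 0.0028), from 10.43 and 10.36 to 11.44 and 11.37 at 6 h and from 10.80 and 10.63 to 11.40 and 11.22 at 24 h. These were 3 of 21 measured members, none fell, and the list median was 0.15. Each of the 3 passed at both times and was steady.

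Lipid mediator genes followed with 3 of 24 members higher and 0 lower, at a list median of 0.046. Alox5, the lipoxygenase that begins leukotriene synthesis, rose by 0.48 at each time although its untreated level climbed between the times, from 9.01 and 8.98 to 10.57 and 10.60. With HRG it read 9.49 and 9.48 at 6 h and 11.12 and 11.01 at 24 h (adjusted p = 0.0041). Cysltr1, a receptor for cysteinyl leukotrienes, rose by 0.84 ± 0.12, from 9.24 and 9.21 to 9.76 and 9.85 at 6 h and from 10.48 and 10.11 to 11.52 and 11.29 at 24 h. Ptgis, the prostacyclin synthase, rose by 0.52 ± 0.09 (adjusted p = 0.016). An enzyme and a receptor of the leukotriene branch thus both rose and both were steady, while the Ptgis call was lost without HRG_24h replicate 1.

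Some secreted and matrix genes were among those that rose. Olfml3, a secreted olfactomedin-domain protein, rose by 1.16 ± 0.17 (adjusted p = 0.0076), Tgfbi by 0.70 ± 0.13, fibronectin, Fn1, by 0.51 ± 0.09 and the protease Adam8 by 0.41 ± 0.06. They were 4 of 40 measured members of the matrix list, which had 0 lower members and a median of 0.16, and whose count was 2 without either HRG_24h replicate. Among clotting genes, F3, tissue factor, rose by 0.73 ± 0.09 (adjusted p = 0.0031), from 8.97 and 8.67 to 9.44 and 9.49 at 6 h and from 8.85 and 8.74 to 9.73 and 9.48 at 24 h. F13a1, the subunit of the factor that cross-links fibrin, rose by 1.01 ± 0.16 (adjusted p = 0.013), a call lost without HRG_24h replicate 2. F5, the cofactor of prothrombin activation and a gene typical of resident peritoneal macrophages, fell by 0.69 ± 0.09 (adjusted p = 0.0035): it read 10.06 and 9.98 without and 9.28 and 9.18 with HRG at 6 h, then 10.33 and 10.02 without and 9.66 and 9.50 with HRG at 24 h. Initiator and cofactor of the same cascade therefore moved apart, with 2 of 23 clotting genes higher and 1 lower. Among proteoglycan genes, which make the heparan sulphate that HRG binds, the sulphatase Sulf2 (0.62 ± 0.10) and the core proteins Sdc1 (0.42 ± 0.08) and Sdc3 (0.37 ± 0.07) rose, which is 3 of 27 with a median of 0.093. That count of 3 fell to 1 without any of 5 arrays, namely Basal_6h replicate 2, Basal_24h replicate 1, HRG_6h replicate 1 and both HRG_24h replicates.

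Of 37 cytokine genes, 2 rose and 1 fell. Tgfb2 rose by 0.70 ± 0.10 (adjusted p = 0.0076), from 9.78 and 9.51 to 10.61 and 10.35 at 6 h and from 9.40 and 9.43 to 10.13 and 9.83 at 24 h. Tnfsf13b, the B cell survival factor BAFF, rose by 0.52 ± 0.08 (adjusted p = 0.010). Il6 fell by 0.72 ± 0.11 (adjusted p = 0.012), from 12.16 and 11.79 to 11.15 and 10.93 at 6 h and from 10.72 and 10.87 to 10.22 and 10.38 at 24 h. Its HRG arrays lay below the basal arrays of the same time, yet untreated cells at 24 h had less Il6 than treated cells at 6 h. Without Basal_24h replicate 1 the cytokine count rose to 6. Of 29 chemokine genes, Cxcl14 (0.84 ± 0.11, adjusted p = 0.0051) and Ppbp, the platelet basic protein (0.94 ± 0.15, adjusted p = 0.013), rose and 0 fell, and the Ppbp call was lost without HRG_24h replicate 2 (adjusted p = 0.066). Among growth factors of the angiogenic list, Fgf2 rose by 0.60 ± 0.09 and Pdgfa by 0.44 ± 0.08, which is 2 of 28 with a median of -0.035. The Pdgfa call was lost, and the count was 1, without Basal_6h replicate 2, HRG_6h replicate 1, either Basal_24h replicate or either HRG_24h replicate. Tlr8, an endosomal sensor of RNA, rose by 0.77 ± 0.08 (adjusted p = 0.0022), from 10.20 and 10.09 to 10.74 and 10.96 at 6 h and from 11.05 and 10.82 to 11.86 and 11.69 at 24 h. With Pycard (0.75 ± 0.14), the inflammasome adaptor ASC, and Nlrp1b (0.48 ± 0.09), Tlr8 made up 3 of 32 members of its list, and it was the steady one. Maf, a transcription factor of resident macrophages, rose by 0.80 ± 0.14 (adjusted p = 0.018), a call lost without Basal_24h replicate 2 and without HRG_24h replicate 2.

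Markers of both peritoneal macrophage subsets were among the sustained genes. Of 27 genes typical of large resident cells, 5 rose (Vsig4, Nt5e, Tgfb2, Fn1 and Ltbp1) and F5 fell, with a median of 0.099. Of 25 genes typical of small or monocyte-derived cells, 3 rose (F13a1, Folr2 and Itgax) and 0 fell, with a median of 0.22, and that count was 1 without either Basal_24h replicate and 0 without HRG_24h replicate 2. Singly, 0 of the 25 passed at 6 h (list median 0.028), while 12 rose and 0 fell at 24 h (0.40). Gata6, which specifies the large subset, did not pass (0.28 ± 0.07, adjusted p = 0.11). The alternative activation list had 7 of 29 members higher, namely F13a1, Tgm2, Folr2 (0.76 ± 0.14), Stab1, Fn1, Arg1 and Clec7a, and 0 lower, with a median of 0.20. Its count was 4 without Basal_24h replicate 2 and 2 without HRG_24h replicate 2. Of 25 classical activation genes, 0 rose and 1, Il6, fell over both times. Singly, 5 of them fell and 0 rose at 6 h (list median -0.11), while 4 rose and 0 fell at 24 h (0.17). In the alternative activation list 4 rose and 1 fell at 6 h, and 9 rose and 0 fell at 24 h. Over all genes, 0.431% rose and 0.818% fell at 6 h, and 2.43% rose and 1.05% fell at 24 h.

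Genes of the amino acid and ATF4 response made up the clearest group among those that fell. Of 36 measured members, 10 fell and 0 rose, the median was -0.38, and 6 members had a mean difference above 0. The median was deeper at 6 h (-0.46, with 17 members past the threshold) than at 24 h (-0.19, with 6). Over all genes, 0.818% fell at 6 h and 1.05% at 24 h. Trib3, the pseudokinase that ATF4 and CHOP induce, read 10.497 and 10.64 without and 9.68 and 9.35 with HRG at 6 h, then 9.31 and 9.42 without and 8.47 and 8.49 with HRG at 24 h. It was 1.96-fold lower (-0.97 ± 0.09, adjusted p = 0.00053). Asns, asparagine synthetase, read 12.15 and 12.13 without and 11.14 and 10.96 with HRG at 6 h, then 10.69 and 11.08 without and 10.03 and 10.24 with HRG at 24 h (-0.92 ± 0.11, adjusted p = 0.0028). In both genes the untreated level also dropped between the times, to about the level that treated cells had at 6 h. Mthfd2, the mitochondrial folate enzyme, changed by -0.69 ± 0.10 (adjusted p = 0.0062), and these 3 genes passed at both times and were steady. A drop between the times in untreated cells was common in the lower set. Of its 71 genes, 40 fell and 4 rose past the threshold. Of the 165 higher genes 38 fell and 44 rose, and of all 19938 genes 1093 fell and 758 rose.

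The transporters Slc7a5 (-0.82 ± 0.14), which carries leucine and other large neutral amino acids, Slc7a1 and Slc1a4 (-0.57 ± 0.10), a carrier of neutral amino acids, fell too. So did Ppp1r15a (GADD34, -0.75 ± 0.16), which helps to reverse the stress-induced block of translation, and the factors Ddit3 (CHOP, -0.74 ± 0.15), Atf4 (-0.39 ± 0.08, adjusted p = 0.045) and Atf5 (-0.37 ± 0.07). The calls of Ddit3, Atf4 and Atf5 were each kept in 1 of the 8 fits without single arrays, and those of Ppp1r15a and Slc1a4 in 2. Outside the list, Gtpbp2 (-0.62 ± 0.07), Ifrd1 (-0.62 ± 0.09) and Xpot, the exporter of tRNAs from the nucleus (-0.42 ± 0.07), fell, genes named after their values were seen. Sustained members of the opposite direction in amino acid handling were the transporters Slc7a8 (0.60 ± 0.11), Slc7a7 (0.38 ± 0.08) and Slc36a1 (0.36 ± 0.07) and the mTOR-binding protein Deptor (0.53 ± 0.09), also named after their values were seen. Of 18 aminoacyl-tRNA synthetases, which charge tRNAs, 6 fell and 0 rose, with a median of -0.30: Yars (-0.60 ± 0.11), Cars (-0.53 ± 0.09), Eprs (-0.52 ± 0.07), Gars (-0.44 ± 0.07), Mars1 (-0.44 ± 0.08) and Nars (-0.33 ± 0.06). Eprs, which charges 2 amino acids, read 11.27 and 11.23 without and 10.86 and 10.77 with HRG at 6 h, then 10.77 and 10.90 without and 10.22 and 10.23 with HRG at 24 h (adjusted p = 0.0051). Cars, Eprs and Gars were steady, while the call of Yars was kept in 2 of the 8 fits without single arrays and that of Nars in 0, and 4 of the 18 had a mean difference above 0.

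Both counts depended on single arrays. The ATF4 list had 3 sustained members without HRG_24h replicate 2, 4 without Basal_6h replicate 2, 5 without Basal_24h replicate 2 or either HRG_6h replicate, and 6 without Basal_6h replicate 1. The synthetase count fell to 3 without HRG_24h replicate 2, HRG_6h replicate 2, Basal_24h replicate 2 or either Basal_6h replicate. The list medians moved less, from -0.43 to -0.32 and from -0.34 to -0.25. Slc6a9, the glycine carrier, had the deepest mean in the list (-1.27 ± 0.28) but did not pass (adjusted p = 0.060), as its difference was -0.40 at 6 h and -2.14 at 24 h.

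**Figure D3:**
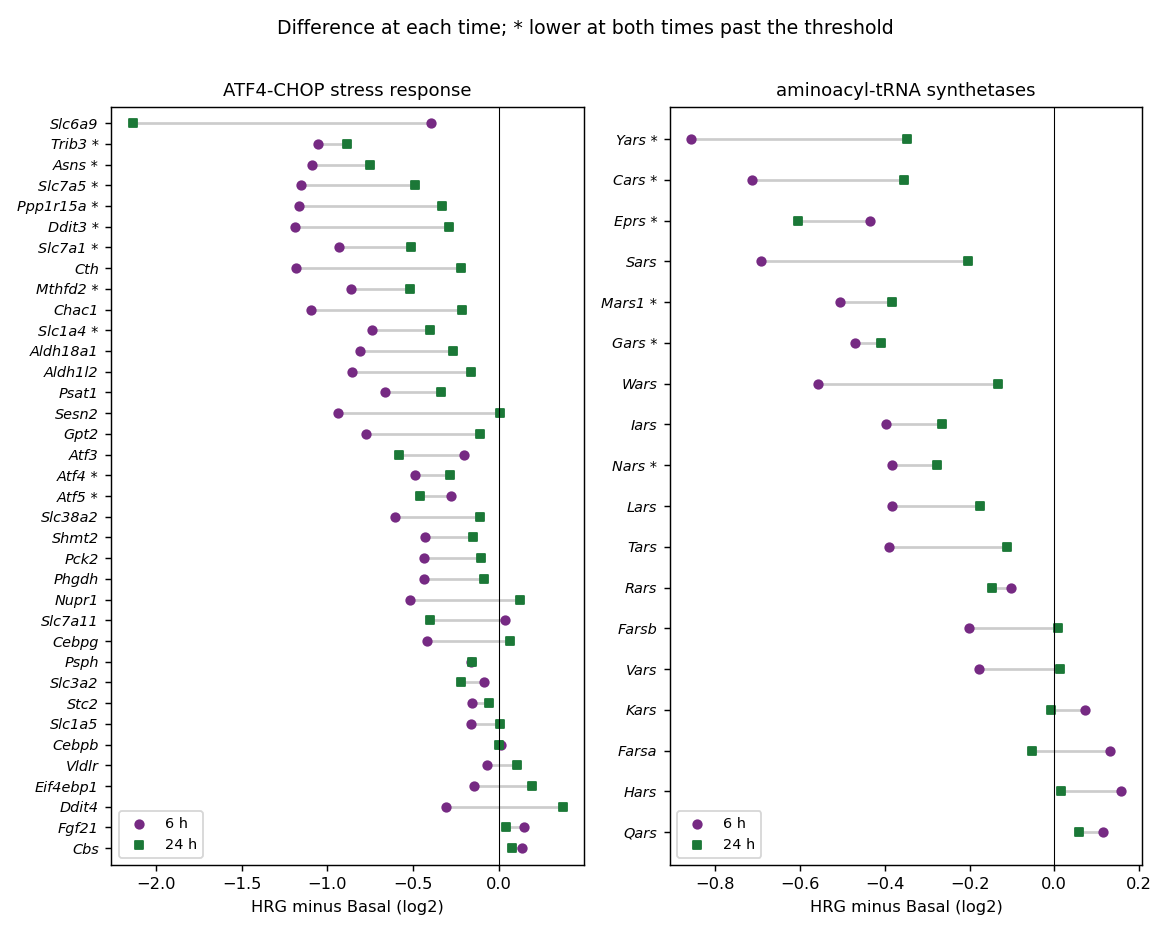
The x axis is the HRG minus basal difference in log2, with a circle for 6 h and a square for 24 h, and each row is a measured member of the ATF4-CHOP list (left, 36 genes) or of the aminoacyl-tRNA synthetase list (right, 18 genes). The 10 and 6 starred genes fell over both times, and in most rows the 6 h circle lies further below 0 than the 24 h square, with Slc6a9 and Eprs among the exceptions.

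ATF4 binds composite elements, the amino acid response elements, for which the letters TGATGNAA were searched on both strands of RefSeq promoter windows (GRCm38.p6, 300 bases, of which 50 lie after the gene's start). The windows of Asns and Gars are shown because both genes fell at each time and hold a match ahead of the start. The 250 bases before the start are printed 5′ to 3′ along the gene's strand, with the match in capitals (on the opposite strand in Gars).
Asns, chr6:7693210-7693459, minus strand: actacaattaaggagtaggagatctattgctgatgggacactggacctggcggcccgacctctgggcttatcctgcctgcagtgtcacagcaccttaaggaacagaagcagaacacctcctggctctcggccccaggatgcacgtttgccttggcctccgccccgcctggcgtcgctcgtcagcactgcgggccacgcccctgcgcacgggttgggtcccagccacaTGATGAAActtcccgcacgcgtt
Gars, chr6:55037751-55038000, plus strand: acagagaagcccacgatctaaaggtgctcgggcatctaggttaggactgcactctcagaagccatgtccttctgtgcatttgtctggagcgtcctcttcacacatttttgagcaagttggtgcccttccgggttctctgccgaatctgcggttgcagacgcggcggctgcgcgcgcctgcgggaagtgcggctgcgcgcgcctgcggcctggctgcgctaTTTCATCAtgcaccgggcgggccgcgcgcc
The first base of the match lay 23 bases before the start in Asns and 30 in Gars. A match was present in 8 of 51 sustained genes that fell and have a window (15.7%: Asns, Avil, Calcrl, Gars, Slc1a4, Sqor, Trib3 and Yars), in 5 of 135 that rose (3.7%) and in 3.62% of the 15563 genes tested that have one. Over all 32851 windows the share was 3.97%. Within the sustained ATF4 and synthetase members, 5 of 13 windows held it (38.5%). It lay ahead of the start in Asns and Gars, but after or across the start in Slc1a4, Trib3 and Yars. The same 13 windows held the MAF-bound letters described next in 23.1% and the antioxidant response element in 30.8%, both more often than all genes (4.88% and 15.2%), and the PU.1-bound letters in 7.69% (15% of all genes). For the letters GAGGAAG, bound by the macrophage factor PU.1, the shares were 17.8% of windows of genes that rose, 9.8% of those that fell and 15% of all genes tested. For the MAF-bound letters TGCTGAC they were 3.7%, 5.88% and 4.88%, and for the antioxidant response element TGACNNNGC 20%, 17.6% and 15.2%. The last 2 motifs share the letters TGAC, so their matches can overlap. The motifs were chosen after the values were seen, and a match is a description of letters, not of binding.

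Other genes that fell span several roles. Slc43a3, a purine base carrier, fell by 0.83 ± 0.11 (adjusted p = 0.0043), from 11.33 and 11.10 to 10.37 and 10.01 at 6 h and from 10.19 and 10.05 to 9.55 and 9.39 at 24 h. Cyb5r1, a cytochrome b5 reductase family member, changed by -0.68 ± 0.07 (adjusted p = 0.0017), with replicates close to each other in each group: 11.86 and 11.84 became 11.06 and 11.04 at 6 h, and 10.79 and 10.82 became 10.23 and 10.26 at 24 h. Plcxd2 (-0.65 ± 0.09) and Bri3bp (-0.64 ± 0.10) fell at both times as well. These 4 genes were steady. From the p53 and apoptosis list, Plk2 (-0.82 ± 0.15), the autophagy-linked Trp53inp1 (-0.63 ± 0.08) and the death receptor Fas (-0.56 ± 0.09) fell and Sesn1, a sestrin that restrains mTORC1, rose (0.60 ± 0.12), which is 4 of 23. That count was 2 without HRG_6h replicate 1 or either HRG_24h replicate. Itgb8, which activates latent TGF-β, fell by 0.60 ± 0.10 while Itga9 rose by 0.58 ± 0.09, so that with Itgb5 and Itgax 3 of 24 integrin genes rose and 1 fell (2 in all without HRG_24h replicate 2). Ndrg1, a stress and hypoxia gene, fell by 0.67 ± 0.14 (adjusted p = 0.048), a call lost without 7 of the 8 arrays.

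Primary microRNA transcripts also gave rows on this array, each covering a hairpin and not a mature arm. Of 296 such genes tested, 6 were lower with HRG over both times and 0 higher, which is 2.03%, against 0.356% of all genes that were lower. They fell outside the rule for naming genes and were looked at after their values were seen. Mir18, Mir19a and Mir19b-1 belong to the Mir17 cluster on chromosome 14, Mir221 and Mir222 are neighbours on the X chromosome, and Mir146 gives miR-146a, an inhibitor of Toll-like receptor signalling. Rows of the same cluster or of neighbours are not independent, so the 2.03% does not count 6 separate changes. The mature sequences of all 6 (RefSeq, GRCm38.p6) are shown with the seed, bases 2 to 8, in capitals, because 2 pairs of them share it.
miR-18a-5p: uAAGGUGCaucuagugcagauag
miR-19a-3p: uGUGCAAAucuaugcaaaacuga
miR-19b-3p: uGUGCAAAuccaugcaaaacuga
miR-221-3p: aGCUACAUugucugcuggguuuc
miR-222-3p: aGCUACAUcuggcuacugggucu
miR-146a-5p: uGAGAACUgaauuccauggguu
The 2 miR-19 forms share GUGCAAA and the pair miR-221 and miR-222 shares GCUACAU. The miR-18a hairpin row read 7.42 and 7.14 without and 6.70 and 6.90 with HRG at 6 h, then 6.75 and 7.11 without and 6.29 and 6.12 with HRG at 24 h (Mir18, -0.60 ± 0.10, adjusted p = 0.019). Mir19b-1 read 6.88 and 6.69 without and 6.24 and 6.47 with HRG at 6 h, then 6.58 and 6.87 without and 5.53 and 5.18 with HRG at 24 h (-0.90 ± 0.17, adjusted p = 0.030). The late values of Mir19b-1 lay far below every other array. Mir222 (-0.51 ± 0.08) and Mir221 (-0.43 ± 0.08) moved by similar amounts, as did Mir19a (-0.72 ± 0.14) and Mir146 (-0.65 ± 0.12). Levels were low in some of these rows: Mir19a lay between 4.03 and 5.29, below the lower quartile of every array (5.85 to 6.00), and Mir146 between 5.26 and 6.35. The table carries no detection call, so such rows are not shown to be above background and the size of their difference is uncertain. None of the 6 was steady, as each call was lost without 2 to 6 of the 8 single arrays. Other rows of the cluster did not pass: Mir17 gave -0.25 ± 0.09 (adjusted p = 0.26), Mir20a -0.59 ± 0.14 (adjusted p = 0.065) and the host transcript Mir17hg -0.30 ± 0.09 (adjusted p = 0.21). Related rows elsewhere in the genome did not pass either. Mir19b-2 gave -0.24 ± 0.07 (adjusted p = 0.14), Mir106a -0.01 ± 0.09 and Mir146b 0.05 ± 0.09. Singly, 1 of the 296 passed at 6 h, where 1.25% of all genes did. At 24 h 14 fell and 0 rose, where 1.05% of all genes fell and 2.43% rose. Of the 6 rows, the size of the effect differed between the times past the threshold in Mir19b-1. The effects at 6 h and 24 h were -0.61 and -0.69 for Mir146 and -0.43 and -0.58 for Mir222.

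**Figure D4:**
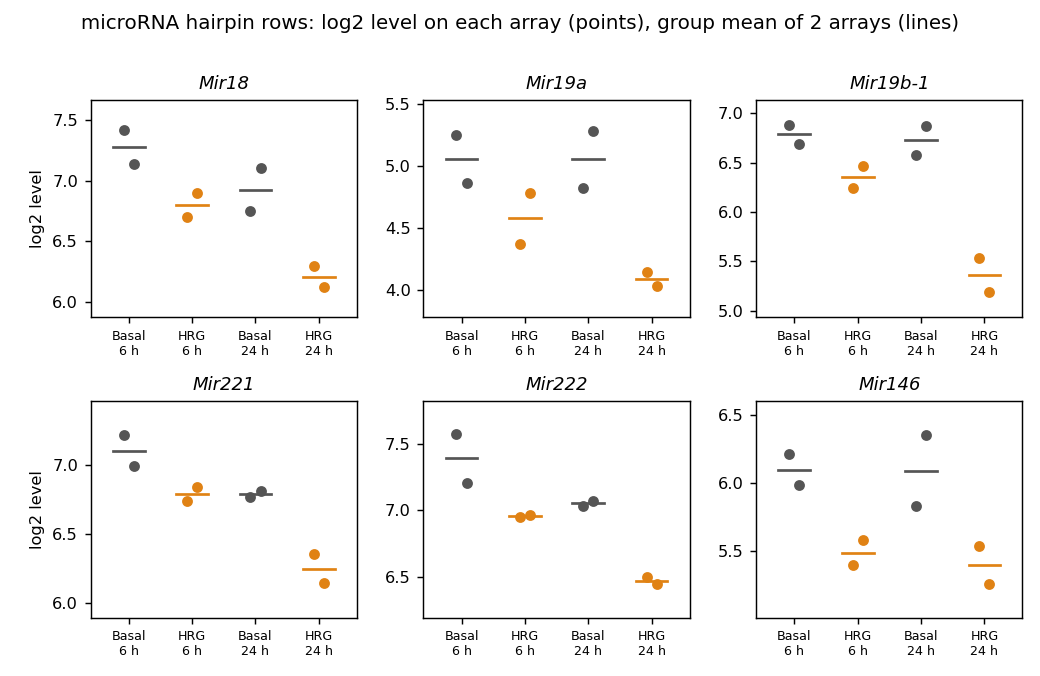
Each panel gives the log2 level of 1 microRNA hairpin row (y axis) in the 4 groups (x axis), with a point for each of the 2 arrays and a line at their mean. In each of the 6 panels the HRG points lie below the basal points of the same time, and in all but the Mir146 panel the 24 h HRG points lie lowest.

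The size of the effect was compared between the times in the fit with 1 coefficient per group. Of the 165 higher genes, 114 had the larger effect at 24 h and 51 at 6 h, and their medians were 0.45 at 6 h and 0.59 at 24 h. The difference passed in 12 of them, all larger at 24 h, and in 1.47% of all genes in either direction. The largest growth was in C1qc, from 0.58 at 6 h to 2.36 at 24 h (difference adjusted p = 0.0082), C1qa, from 0.51 to 1.87, Vsig4, from 0.79 to 2.10, and C1qb, from 0.56 to 1.66. Of the 71 lower genes, 45 had the larger effect at 6 h, and the difference passed in 3. Mospd4, a gene of a motile-sperm-domain family, went from -1.46 at 6 h to -0.37 at 24 h (adjusted p = 0.013) and Ddit3 from -1.19 to -0.29 (adjusted p = 0.017), while Mir19b-1 went from -0.43 to -1.37 (adjusted p = 0.043). In an additive fit such unevenness enters the error, so these genes had large errors and adjusted p between 0.011 and 0.047. That fit tends to leave uneven genes out, so the counts do not show how often an effect of HRG changed with time.

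At the other end were genes with nearly equal effects. By rule, the most even among those that passed at both times were Elk3, an ETS-family transcription factor, Rab27a, a GTPase of vesicle release, Alox5, Stab1 and Gbgt1, a glycosyltransferase. Elk3 was 1.36-fold higher at each time, and the interval of the difference of its effects ran from -0.28 to 0.29. Rab27a was 1.58-fold higher at each time, with an interval from -0.44 to 0.43. Among the genes that fell the most even were Gsto1, a glutathione transferase (-0.49 at each time, interval from -0.31 to 0.32), Cox6a2, a subunit of cytochrome c oxidase (-0.50 and -0.49), the mismatch repair gene Msh3 (-0.48 and -0.54), Gars (-0.47 and -0.41) and Bri3bp (-0.71 and -0.57). The intervals show that differences of about 0.3 between the times could not be seen for genes of this spread.

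The other lists had few or no sustained members. The list of NRF2 targets and glutathione genes had 0 of 43, although 23 fell at 24 h and 0 at 6 h, and its medians were 0.11 at 6 h and -0.47 at 24 h. Over all genes, 0.818% fell at 6 h, and 1.05% fell and 2.43% rose at 24 h. Of 38 interferon-stimulated genes, 2 rose (Ifit2 by 0.61 ± 0.11 and Ifi205 by 0.60 ± 0.12) and 0 fell, with a median of 0.30. All 38 had a mean difference above 0, against 49.9% of all genes, but members of such a list are not independent. Singly, 0 passed at 6 h (median 0.11), while 11 rose and 0 fell at 24 h (median 0.46). Without single arrays the median over both times ran from 0.16 to 0.35. The calls of Ifit2 and Ifi205 were lost without any of 5 arrays, namely Basal_6h replicate 2, either HRG_6h replicate or either HRG_24h replicate. The count of the list ran from 0 to 4 over the fits without single arrays, with 4 without Basal_6h replicate 1. Fc receptors (10 measured), NF-κB subunits and feedback genes (24), antigen presentation (20), oxidative phosphorylation (29), cholesterol synthesis (22), heat shock (12) and the cell cycle (29) had 0. For lists of this size 0 is near the share of all genes, 1.18%. Metal and haem genes had 1 of 34, Hfe (0.41 ± 0.08, adjusted p = 0.042), a call lost without 7 of the 8 arrays. Immediate early genes had 1 of 34, Fos, at 0.61 ± 0.12, lost without 5 of the 8 arrays. The list of chaperones and the folding response had 1 of 28, Creb3l2 (0.64 ± 0.11). Glycolysis and hypoxia had 1 member higher, Pdk1 (0.35 ± 0.06), and 1 lower, Ndrg1, of 29. These counts cover list members only. Outside the lists of NRF2 targets and glutathione, metal and haem genes, oxidative phosphorylation and heat shock, related genes were sustained. Trf (0.48 ± 0.10), Hebp1 (0.46 ± 0.08) and Glrx (0.48 ± 0.06) rose. Flvcr2 (-0.46 ± 0.09), Cox6a2 (-0.50 ± 0.07), Hspa9 (-0.37 ± 0.07) and Gsto1 (-0.49 ± 0.07) fell. They were picked here after their values were seen, and of them Cox6a2, Glrx and Gsto1 were steady.

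Markers of other cells had no sustained member: 0 of 19 for B cells, 0 of 22 for T and NK cells, 0 of 15 for mast cells, 0 of 15 for neutrophils, 0 of 7 for eosinophils, 0 of 18 for dendritic cells and 0 of 20 for mesothelial cells and fibroblasts. As 1.18% of all genes were sustained, 0 is near that share for lists of this size. Some of these lists did move within a time. The B cell list had a median of -0.28 at 6 h and 0.48 at 24 h, where 9 members rose, and the mast cell list -0.084 and 0.64, where 8 rose. At 24 h 2.43% of all genes rose. The summed B cell level (log2 of the summed linear values) lay at 13.90 to 13.91 in Basal_6h, 13.64 to 13.70 in HRG_6h, 13.29 to 13.43 in Basal_24h and 13.66 to 13.83 in HRG_24h. For mast cells these ranges were 13.43 to 13.52, 13.30 to 13.41, 12.79 to 13.10 and 13.31 to 13.63. Both summed levels were thus lower with HRG at 6 h and higher at 24 h. The macrophage list read in sum 16.92 to 17.00 without and 16.99 to 17.02 with HRG at 6 h and 17.00 to 17.01 without and 17.17 to 17.18 with HRG at 24 h, and 2 of its 19 members passed, Maf and Mertk. The sum over large resident macrophage genes lay at 16.99 to 17.09 without and 17.10 to 17.13 with HRG at 6 h, and at 17.04 to 17.08 and 17.21 to 17.22 at 24 h. The sum over small and monocyte-derived macrophage genes lay no higher than 14.59 in either group at 6 h, where the groups overlapped, and at 13.92 to 14.16 without and 14.69 to 14.72 with HRG at 24 h. What part these shifts had in single genes was not tested.

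**Figure D5:**
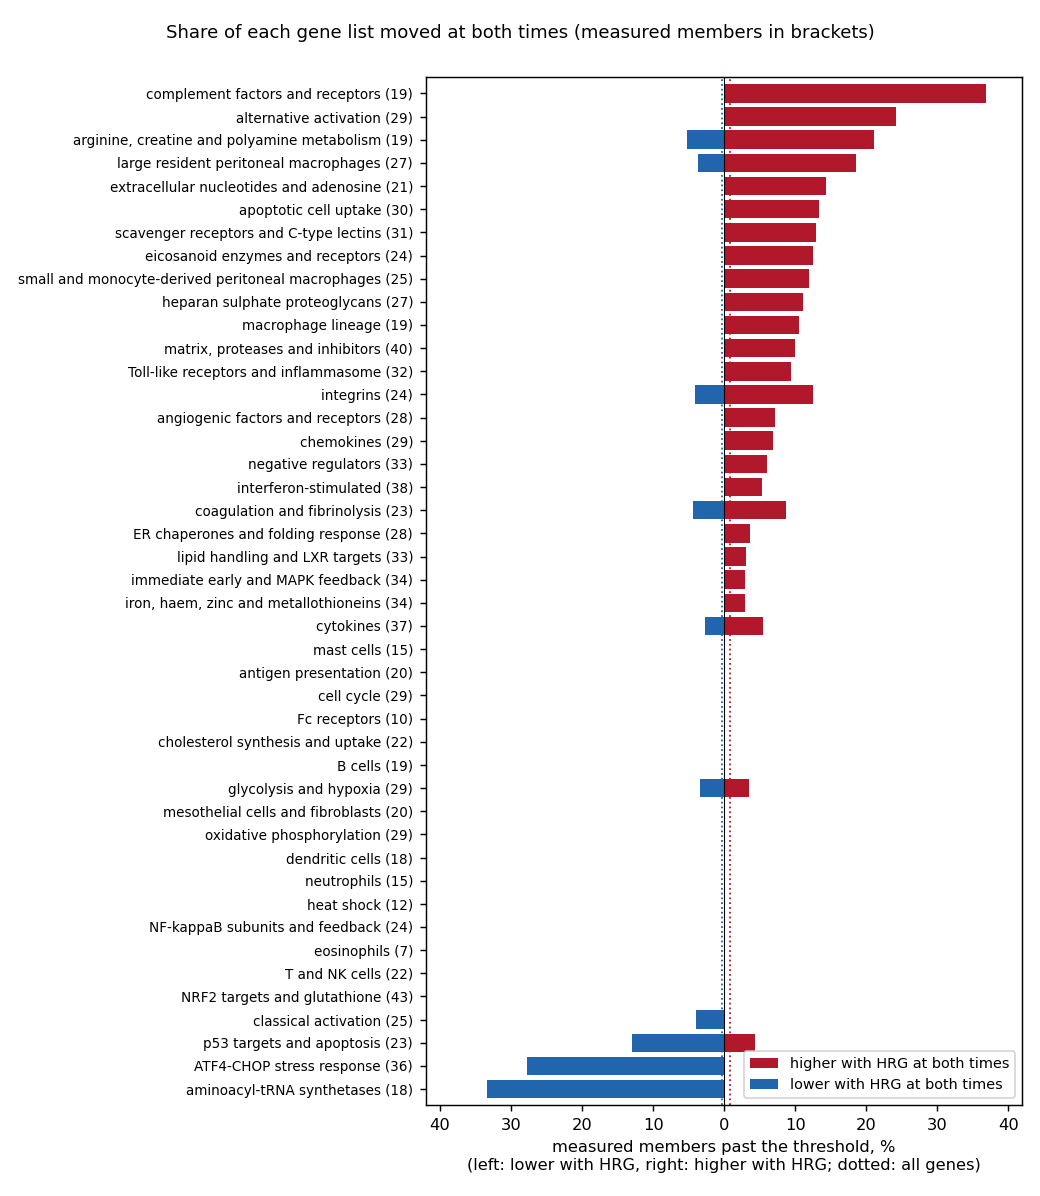
Bars give, for each of the 44 gene lists (y axis, measured members in brackets), the percentage of members that were higher (right, red) or lower (left, blue) with HRG over both times (x axis), and dotted lines mark the shares of all genes, 0.828% and 0.356%. Complement genes reach furthest to the right and aminoacyl-tRNA synthetases and the ATF4-CHOP list furthest to the left, while the lists of other cell types have no bar.

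Several genes linked to HRG or to macrophage activation were reported whatever their values. Placental growth factor, Pgf, gave 0.20 ± 0.06 (adjusted p = 0.21), with 6.15 and 6.09 in basal and 6.31 and 6.36 in HRG arrays at 6 h and 5.97 and 6.07 in basal and 6.18 and 6.21 in HRG arrays at 24 h, so that the HRG arrays lay above the basal arrays at each time without passing. The mannose receptor Mrc1 gave 0.88 ± 0.20 (adjusted p = 0.060), with an effect of 0.29 at 6 h and 1.47 at 24 h, and Il12b gave -0.72 ± 0.18 (adjusted p = 0.089), with -1.20 at 6 h and -0.23 at 24 h. The signs of Ccl22 (-0.41 and 0.73), Mmp9 (-0.21 and 0.80), Cd80 (-0.51 and 0.14), Il10 (-0.05 and 0.75) and Ccl2 (-0.13 and 0.44) differed between 6 h and 24 h. Vegfa (0.05 ± 0.07), Flt1 (0.02 ± 0.06), Tgfb1 (0.03 ± 0.07), Csf1r (-0.01 ± 0.06) and Ifnb1 (-0.02 ± 0.08) had mean differences below their errors. Tnf (-0.25 ± 0.12), Il1b (0.15 ± 0.07), Nos2 (0.27 ± 0.07), Cxcl9 (0.28 ± 0.09) and Cxcl10 (0.27 ± 0.10) did not pass, and of the whole fixed set Arg1 and Il6 did. At the threshold itself, Slc7a7 was just inside (0.38, adjusted p = 0.048) and Cd28 just outside (-0.44, adjusted p = 0.050).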

How the data were processed

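RNA of 8 samples was measured on 8 Affymetrix arrays, 250 ng per sample with the Ambion WT kit per the labels' protocols. The deposited log2 values were made by the authors with RMA in Affymetrix Expression Console, and limma is named as well, per the submitters' processing notes. Their versions were not stated there. Rows with 1 platform symbol were kept, 1 row per gene by highest mean over the 8 arrays, which left 19938 genes of 28853 rows (21789 rows with 1 symbol, 1621 with several, 5443 with none). The number of arrays limits precision.

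Fits used limma 3.58.1 (lmFit, eBayes) under R 4.3.3: an additive model of time and treatment (5 residual and 6.25 prior degrees of freedom), and 1 coefficient per group (4 and 7.81) for each time and for the difference of effects. Tests were two-sided, with Benjamini-Hochberg adjustment over all genes and a threshold of 0.05. Errors after ± are standard errors. The fit was tested on simulated data.

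The members, the 44 gene lists (1120 of 1209 entries measured) and the naming rule were chosen with earlier results of these data known. The rule took the 15 largest sustained changes each way, the 5 most even, up to 4 with the largest growth or shrinkage, up to 5 members of each list and 22 genes whatever their values, and left small RNAs and predicted genes unranked. Further list members named to complete a count (C5ar1, C5ar2, Ltbp1, Atf4, Atf5, Slc1a4, Nars), Gata6, Cd28, Slc7a7 and Slc6a9 were chosen after their values were seen. Alternatives were the replicate block, spread within groups, renewed quantile normalization, median centring, eBayes with trend and robust options, dropping the dimmest 30%, every row, mean rows, a 1.5-fold minimum, a quartile covariate, no time covariate and leaving out each array.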

Additional observations from a re-analysis of the deposited data

Results flagged for a closer look

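For 10 named genes among those that rose or fell over both times, and for the Mir19b-1 row, the effect of HRG differed between 24 h and 6 h by its own test (limma, difference of the 2 effects, adjusted p under 0.05). The difference, 24 h minus 6 h in log2, was 1.78 for C1qc (0.58 at 6 h and 2.36 at 24 h), 1.36 for C1qa (0.51 and 1.87), 1.31 for Vsig4 (0.79 and 2.10) and 1.10 for C1qb (0.56 and 1.66). It was 0.94 for Olfml3 (0.69 and 1.63), 0.91 for Trem1 (0.53 and 1.44), 0.88 for Ppbp (0.50 and 1.38) and 0.67 for Fos (0.28 and 0.94). Among genes that fell it was 1.10 for Mospd4 (-1.46 and -0.37), 0.90 for Ddit3 (-1.19 and -0.29) and -0.93 for Mir19b-1 (-0.43 and -1.37).

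Of the genes reported whatever their values, 5 that did not pass over both times had effects that differed between the times. The difference was 1.19 for Mrc1 (0.29 and 1.47), 1.14 for Ccl22 (-0.41 and 0.73), 1.01 for Mmp9 (-0.21 and 0.80), 0.96 for Il12b (-1.20 and -0.23) and 0.65 for Cd80 (-0.51 and 0.14).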

How the results depend on the processing

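None of the named genes that passed over both times changed direction under the settings tried, but many lost their call. Of 89 named genes and microRNA rows that passed, 84 did not pass without the time covariate, 24 with every row tested, 14 with trend and robust (among them C1qa, C1qb, C1qc, Vsig4, F13a1, Ddit3 and Mospd4), 11 with median centring and 9 with the replicate block (among them C1qc, Ddit3, Ppp1r15a, Fos and Mospd4). The 236 genes called over both times became 624 (486 with separated arrays) with the mean of the 2 effects and the spread within groups, 388 (374) with the lower quartile as a covariate, 99 with a 1.5-fold minimum and 7 without the time covariate. The 249 genes at 6 h became 492 with trend and robust, 134 with every row tested, 133 with a 1.5-fold minimum and 518 with the quartile covariate. The 694 at 24 h became 394 with a 1.5-fold minimum and 1099 with the covariate. The 294 differences of effects became 547 with trend and robust, 168 with every row and 519 with the covariate. The 59 genes called at both times became 119 with trend and robust, 93 with renewed quantile normalization, 30 with every row and 123 with the covariate. Leaving out single arrays gave 102 to 199 genes over both times, the same range with separated arrays, 21 to 287 at 6 h, 182 to 781 at 24 h, 56 to 404 differences and 11 to 71 genes at both times. Without Basal_24h replicate 1, 102 rose and 79 fell, so the share that rose was 56.4% in place of 69.9%.

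The labels tie nothing to the replicate numbers, and not every group's deviations correlated by number: Basal_6h, HRG_6h and HRG_24h correlated at 0.244 to 0.411 with each other, and Basal_24h at -0.331 to -0.201 with these. The numbers were therefore not used as pairs. With the replicate block 189 genes were called over both times, 188 of them with separated arrays. Crossing the numbers of Basal_24h in the block, chosen after seeing the data, gave 510 genes at 6 h, 1083 at 24 h, 604 differences and 122 genes at both times.

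With 2 arrays a group, from 1 pool of mice, the data cannot show how the changes vary between mice, and a gene that did not pass is not shown to be unchanged.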
